A study of Mus musculus with 11 samples.

Results

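The genes described here are 6 metabotropic glutamate receptors (Grm5, Grm2, Grm3, Grm4, Grm7 and Grm8) and the 3 Homer scaffolds (Homer1, Homer2 and Homer3) in hippocampal CA1 of the mouse. They were chosen by name, 9 of 48709 gene identifiers in the count files, and all 9 passed the filter on low counts. RNA came from 6 libraries of CamkdeltaC transgenic mice and 5 of littermate controls, all 3 months old. CamkdeltaC is the cytosolic variant of CaMKII delta, a kinase switched on by calcium and calmodulin. The mouse line models heart failure, and its transgene is under a promoter of heart muscle. Both sexes were used, without the sex of a library being given, and nothing says whether each library is a separate animal, so the p-values measure the spread between these libraries, which may be technical.

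Metabotropic glutamate receptors are G protein-coupled receptors for glutamate. Group I receptors such as Grm5 signal through Gq to phospholipase C and to calcium release from internal stores, and sit mainly around the postsynaptic density of excitatory synapses, where they take part in long-term depression and potentiation. Group II (Grm2 and Grm3) and group III (Grm4, Grm7 and Grm8) signal through Gi/o, lower cyclic AMP, and act largely at presynaptic terminals, with Grm3 also on astrocytes. Homer proteins bind the C-terminal tail of group I receptors and, through a coiled coil, join them to IP3 receptors and Shank. Short forms of Homer1, made after neuronal activity, lack the coiled coil and uncouple this scaffold.

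Libraries held 24403918 to 34153726 counts in the transgenic group. The control group held 14263784 to 36898689 counts, the lowest being control 5. All 11 markers of CA1 pyramidal neurons on the list used were detected, with a summed level of 1668 to 2114 CPM (counts scaled to library size) in transgenic and 1475 to 1922 CPM in control libraries. Camk2d, the gene that the transgene carries, had a log2 fold change of -0.08 in CA1 (edgeR adjusted p = 0.873), which does not test the labels of a transgene driven in the heart. Libraries differed in how CPM varied with the GC content of a gene's transcript. The slope of log2 CPM per 10 GC points, against the mean of all libraries, was -0.06 to 0.27 in transgenic libraries and -0.22 to -0.06 in controls. Every transgenic slope was above every control slope, with -0.061 the lowest transgenic and -0.062 the highest control value. Removing the trend thus also removes any part of a group difference that follows GC content. The source of the trend was not tested. The median GC content was 41.6% for genes that fell, 56.1% for genes that rose and 49.6% for all genes tested. The tests of the 9 genes are therefore given as fitted and again with the GC trend of each library removed.

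Among the 9 genes, Grm5 and Homer1 fell in transgenic CA1 and none rose at an adjusted p under 0.05 in edgeR's quasi-likelihood test. Over all genes tested, 10.5% fell, 7.41% rose and 17.9% were called in either direction. At an unadjusted p under 0.05, 3 of the 9 fell (Grm5, Homer1 and Grm7) and 1 rose (Grm4), where 34.7% of all genes passed in either direction. Both DESeq2 and limma voom called Grm5, Homer1 and Grm7 and no rise among the 9, where DESeq2 called 22.9% and limma voom 27.6% of all genes. The number of calls among the 9 is thus near that of genes at large. The median log2 fold change of the 9 was -0.08, against 0.01 over all genes tested. With the GC trend removed, Grm5 alone of the 9 was called, where 0.821% of all genes fell, 1.16% rose and 1.98% were called in either direction. The authors' deposited table of 2014 lower genes lists Grm5 at a log2 fold change of -0.55, Homer1 at -0.43 and Grm7 at -0.20. The authors' deposited table of 1780 higher genes lists Grm4 at 0.28. Both tables come from these same libraries.

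**Figure D1:**
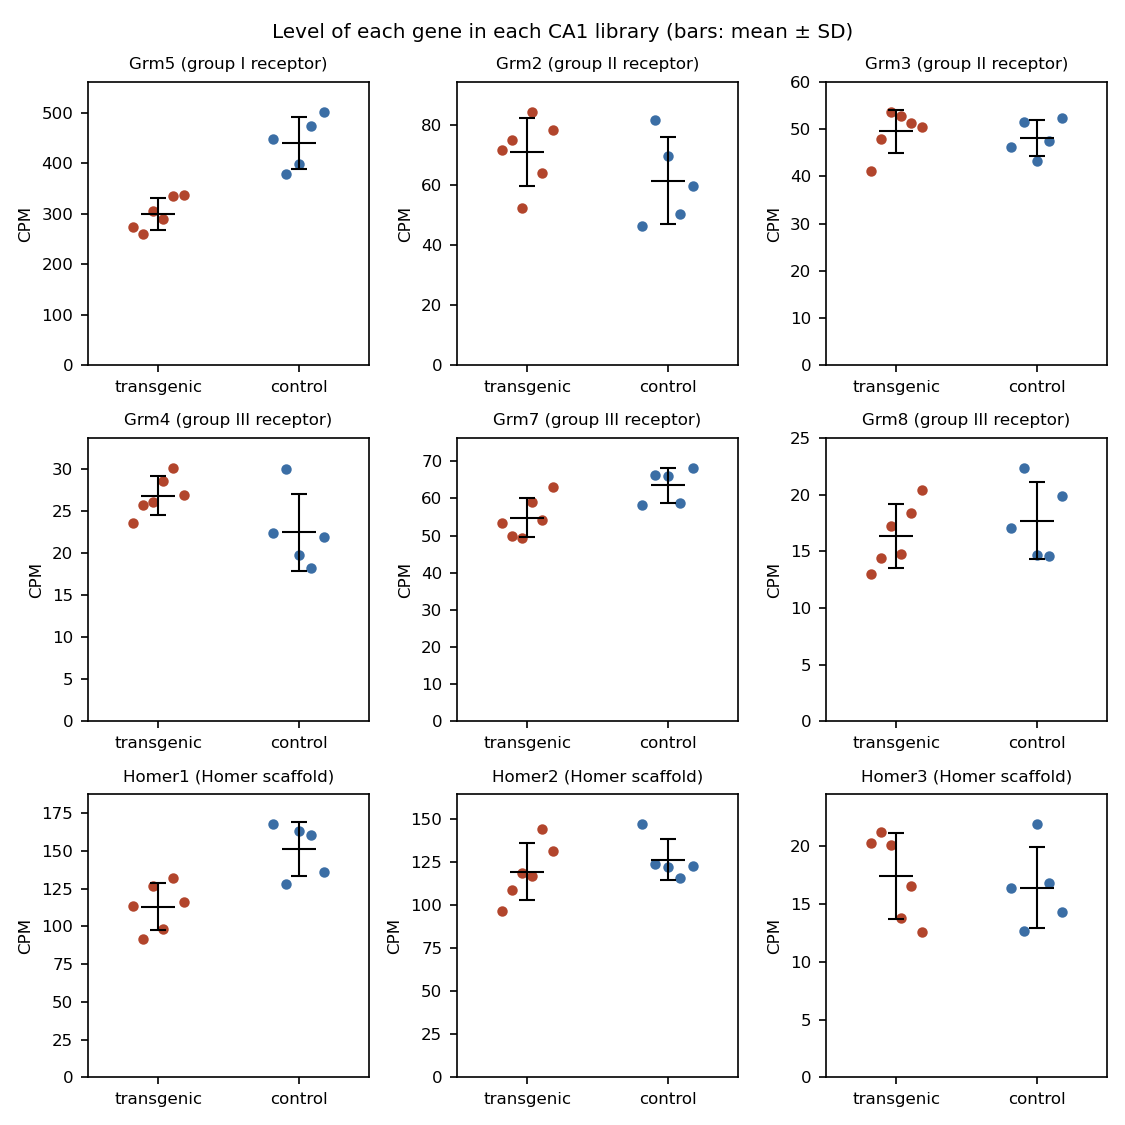
Level of each of the 9 genes (y axes, CPM from 0) in 6 transgenic (left, red) and 5 control libraries (right, blue); each point is a library and bars show mean ± SD. All transgenic points of Grm5 lie below all control points, Homer1 overlaps in transgenic 5 and control 2 alone, and the groups overlap for the other 7 genes, for Grm4 through control 2 alone.

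Grm5 (ENSMUSG00000049583, mm10 chr7:87584168-88134907, + strand) encodes mGluR5, the Gq-coupled group I receptor of CA1 pyramidal neurons. The start of its coding sequence is shown, with G and C in capitals, because the GC content of a transcript bears on the values that follow. These are the first 120 coding bases (chr7:87602544-87602663, + strand, GRCm38, GENCODE), of which 48.3% are G or C:
Grm5: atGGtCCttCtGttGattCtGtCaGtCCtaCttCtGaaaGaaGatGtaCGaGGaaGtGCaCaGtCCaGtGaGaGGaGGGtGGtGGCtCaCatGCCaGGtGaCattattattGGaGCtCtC
The annotated coding transcript was 51.5% GC in its coding part and 34.6% GC in the 4038 bases after the stop codon. GC content over the longest transcript was 42.5%, below the 49.6% median of the genes tested.

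The level of Grm5 was 275, 259.5, 305, 290.5, 335 and 338 CPM in transgenic libraries 1 to 6, against 448, 379, 399.8, 473 and 502 CPM in control libraries 1 to 5. Every transgenic library stood below every control library, a separation in that direction shared by 4.73% of all genes tested. Grm5 averaged 301 ± 31.9 CPM in transgenic (SD, n = 6) and 440.4 ± 51.0 CPM in control libraries (SD, n = 5). It fell by 0.55 on the log2 scale (SE 0.09, 95% interval -0.74 to -0.36, edgeR adjusted p = 0.0103), a fall of 31.7%. Libraries with Xist above 100 CPM (transgenic 1 to 3, control 1, 3 and 4) had 259.5 to 305 CPM of Grm5 in transgenic and 399.8 to 473 CPM in control mice. Those with Xist below it (transgenic 4 to 6, control 2 and 5) had 290.5 to 338 CPM in transgenic and 379 to 502 CPM in control mice. Groups that are apart over all libraries must be apart in any split, so these subsets add no support. In bulk tissue, fewer cells that express a gene and less of its RNA per cell cannot be told apart.

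Removing the GC trend left Grm5 lower in transgenic libraries, by a smaller amount. Its adjusted levels were 300.01 to 336 CPM in transgenic and 356 to 459 CPM in control libraries, still without overlap, as for 1.45% of all genes in that direction. The fall was 0.33 on the log2 scale (SE 0.06, 95% interval -0.47 to -0.20, edgeR adjusted p = 0.0314). It was 0.29 with GC and length trends both removed (adjusted p = 0.0386), where 0.544% of all genes fell. With the mean GC of all annotated transcripts of a gene (47.9% for Grm5) in place of that of the longest, it was 0.49 (adjusted p = 0.0297), where 1.33% of all genes fell. The groups did not overlap on that scale either, at 269 to 338 CPM in transgenic and 375 to 489 CPM in control libraries, as for 1.72% of all genes in that direction. The direction held when each library was left out in turn, and the call held in all 11 such fits without trend removal. With the GC trend removed it held in 3 of 11, at a fall of 0.28 to 0.38 and adjusted p of 0.0156 to 0.0924, namely in the fits without transgenic 5, transgenic 6 or control 2.

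**Figure D2:**
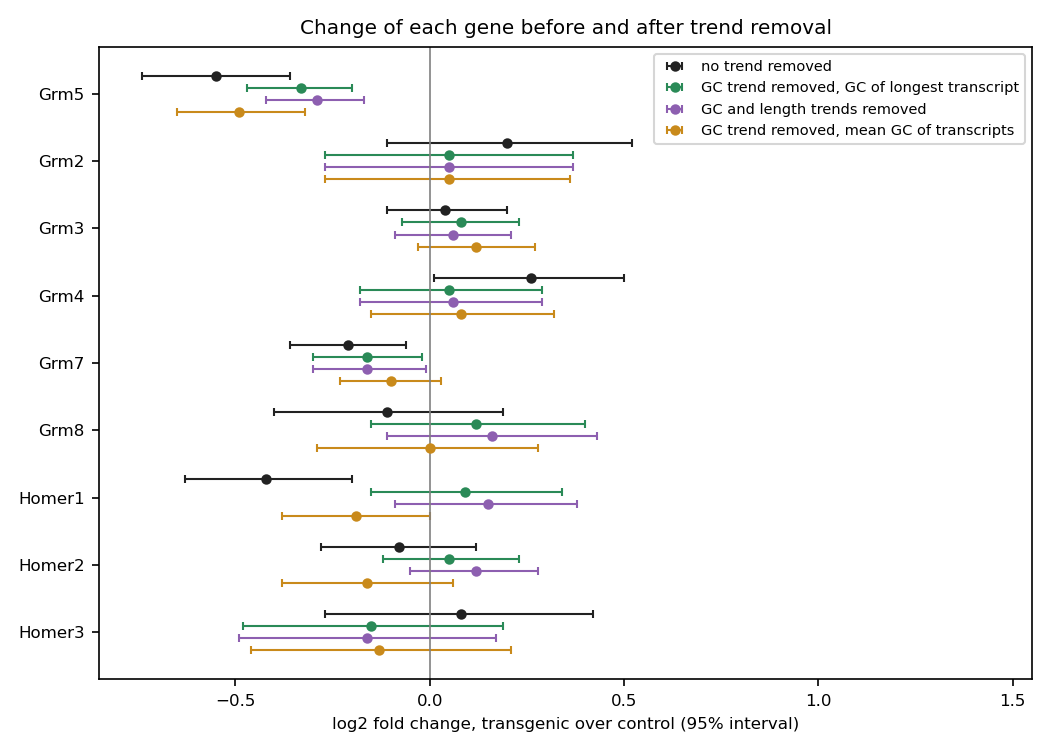
log2 fold change of transgenic over control (x axis) with 95% intervals for each gene, with no trend removed (black), the GC trend removed (green), GC and length trends removed (purple) and the GC trend removed with the mean GC of transcripts (ochre). Grm5 lies below 0 in all 4, while Homer1 lies at -0.42, 0.09, 0.15 and -0.19.

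The group II receptors did not pass the test. Grm2 (ENSMUSG00000023192, chr9:106643095-106656082, - strand), a presynaptic autoreceptor, was at 52.4 to 84.5 CPM with a median of 73.4 in transgenic libraries. In controls it was at 46.3, 81.9, 69.7, 50.5 and 59.7 CPM. The 2 ranges covered each other almost whole, and the log2 fold change was 0.20 (95% interval -0.11 to 0.52, edgeR adjusted p = 0.347), or 0.05 with the GC trend removed. Grm2 shares 9.6% of its exon bases with Gm28111, and the kit does not mark strand. Grm3 (ENSMUSG00000003974, chr5:9485541-9725170, - strand), found on neurons and astrocytes, was at 41.3 to 53.7 CPM with a median of 50.8 in transgenic libraries, against 46.2, 51.6, 43.2, 47.6 and 52.3 CPM in controls. Its log2 fold change of 0.04 had a 95% interval of -0.11 to 0.20 (adjusted p = 0.716) and was 0.08 with the GC trend removed.

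The group III receptors lay in both directions. Grm7 (ENSMUSG00000056755, chr6:110645581-111567230, + strand), a low-affinity receptor of presynaptic active zones, was at 53.3, 50.0, 49.4, 59.0, 54.2 and 63.1 CPM in transgenic libraries and at 58.2, 66.3, 66.1, 58.8 and 68.2 CPM in controls. Transgenic 4 and 6 reached into the control range and the other 4 stood below it. The log2 fold change was -0.21 (SE 0.07, 95% interval -0.36 to -0.06, edgeR adjusted p = 0.0567), just outside the threshold, and Grm7 was called under 5 alternatives, among them DESeq2 and the fit without transgenic 6 (adjusted p = 0.0319 and 0.0124). With the GC trend removed the value was -0.16 (adjusted p = 0.21), and -0.10 with the mean GC of transcripts.

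Grm4 (ENSMUSG00000063239, chr17:27422387-27521403, - strand), a group III autoreceptor best known from the cerebellum, was at 23.6, 25.8, 26.1, 28.6, 30.2 and 26.9 CPM in transgenic libraries. Controls held 22.5, 30.045, 19.8, 18.2 and 21.9 CPM, of which control 2 lay within the upper transgenic values and the other 4 below all of them. The log2 fold change was 0.26 (95% interval 0.01 to 0.50, adjusted p = 0.123), and without control 2 it was 0.39 and called (adjusted p = 0.012). It was 0.05 after removal of the GC trend. Grm8 (ENSMUSG00000024211, chr6:27275119-28135178, - strand), the lowest of the 9 per exon length, was at 13.0 to 20.4 CPM in transgenic and 14.6 to 22.4 CPM in control libraries. Its log2 fold change of -0.11 (95% interval -0.40 to 0.19, adjusted p = 0.611) turned to 0.12 with the GC trend removed.

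Homer1 (ENSMUSG00000007617, chr13:93299635-93405129, + strand) encodes the scaffold that ties mGluR5 to the postsynaptic density, and Homer3 (ENSMUSG00000003573, chr8:70282827-70294361, + strand) a relative with the same plan of domains. Their coding starts are shown with G and C in capitals since the pair differ in composition over the first 120 coding bases. Both stretches of 120 bases are on the + strand, from GENCODE on GRCm38, and both are joined across an intron. That of Homer1 (chr13:93305298-93341870) is 46.7% GC, and that of Homer3 (chr8:70285302-70285499) is 58.3% GC:
Homer1: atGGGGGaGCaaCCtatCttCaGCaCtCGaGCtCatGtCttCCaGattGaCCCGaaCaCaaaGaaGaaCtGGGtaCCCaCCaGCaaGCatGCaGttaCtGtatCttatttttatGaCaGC
Homer3: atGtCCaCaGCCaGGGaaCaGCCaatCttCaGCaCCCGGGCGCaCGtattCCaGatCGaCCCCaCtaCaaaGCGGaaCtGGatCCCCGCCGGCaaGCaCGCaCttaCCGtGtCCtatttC
The longest annotated transcripts were 36.9% GC for Homer1, 44.4% for Homer2 and 60.2% for Homer3. For Homer1 that transcript is a short form with 561 coding bases, against 1113 in its longest coding form, and 4349 bases after its stop codon at 33.5% GC. The mean over all annotated transcripts of Homer1 was 43.5%. Counts per gene merge the short and long forms, so their balance was not measured.

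Homer1 was at 113, 91.7, 127, 98.3, 132 and 116 CPM in transgenic libraries 1 to 6, against 168, 128, 163, 160 and 136 CPM in control libraries 1 to 5. Transgenic 5 lay above control 2, and the other 5 transgenic libraries lay below every control. Homer1 averaged 113 ± 15.6 CPM in transgenic (SD, n = 6) and 151 ± 17.8 CPM in control libraries (SD, n = 5). It fell by 0.42 on the log2 scale (SE 0.10, 95% interval -0.63 to -0.20, edgeR adjusted p = 0.0174), a fall of 25.2%, and was called in each of the 11 fits with a library left out (adjusted p 0.0109 to 0.0488). Where Xist was above 100 CPM, transgenic libraries had 91.7 to 127 CPM of Homer1 and controls 160 to 168 CPM. Where it was below, transgenic libraries had 98.3 to 132 CPM and controls 128 to 136 CPM, with overlap.

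The fall of Homer1 was not called once the GC trend was removed, and its direction then depended on which GC value stood for the gene. With the longest transcript (36.9% GC) the adjusted levels were 160, 128, 159, 113, 133 and 104 CPM in transgenic and 147, 114, 128, 123 and 108 CPM in control libraries, which overlap throughout. The log2 fold change was then 0.09 (SE 0.11, 95% interval -0.15 to 0.34, adjusted p = 0.719), and 0.15 with length removed too (adjusted p = 0.551). With the mean over transcripts (43.5% GC), a value added after seeing the data, levels were 104 to 140 CPM in transgenic and 123 to 158 CPM in control libraries. The log2 fold change was then -0.19 (SE 0.09, adjusted p = 0.264).

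**Figure D3:**
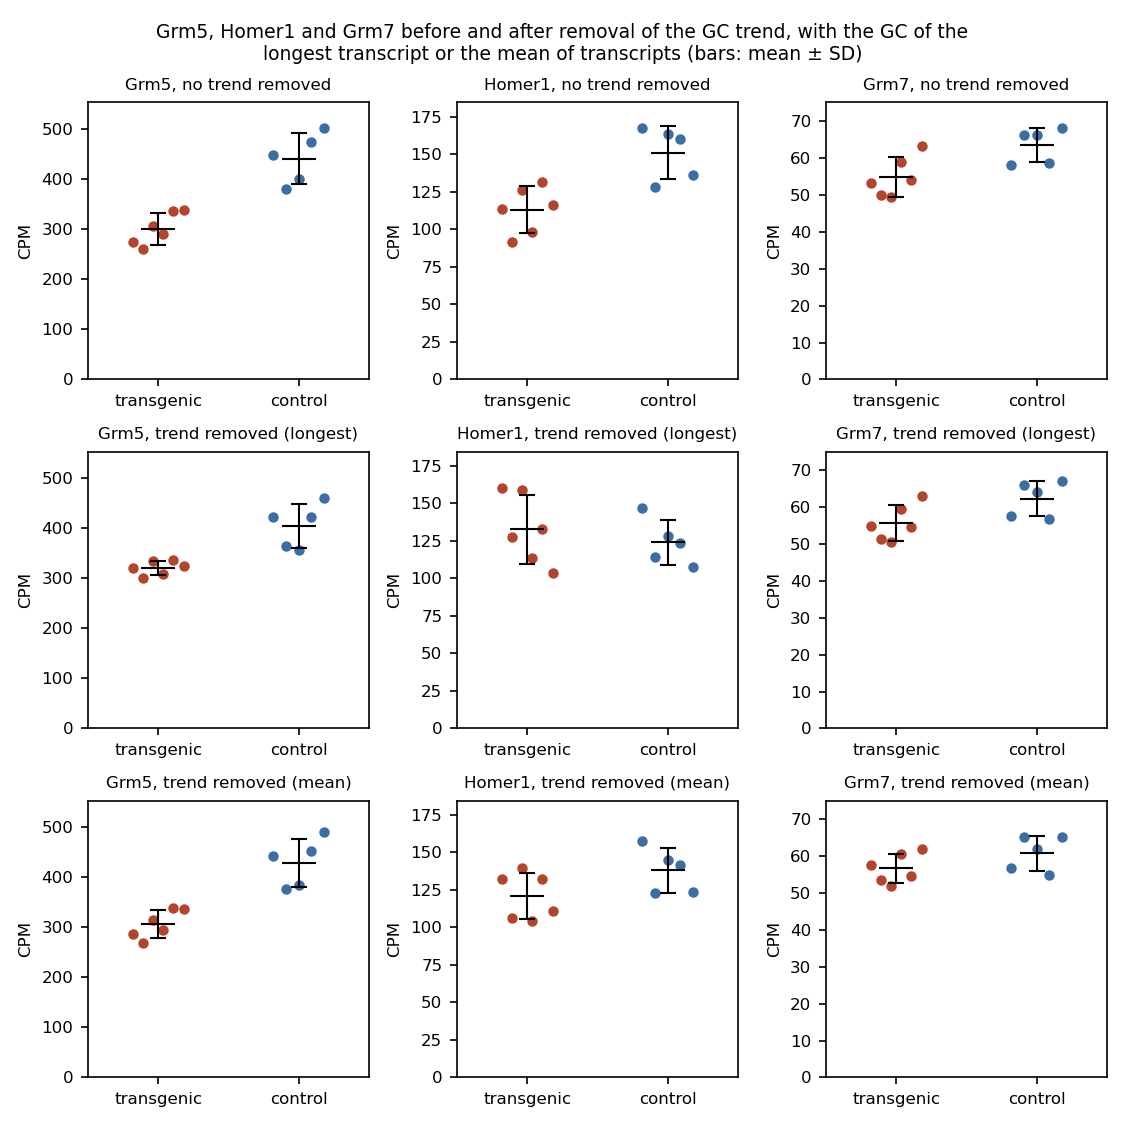
CPM (y axes, from 0) of Grm5, Homer1 and Grm7 in 6 transgenic (left, red) and 5 control libraries (right, blue), with no trend removed (top), with the GC trend removed using the longest transcript (middle) and using the mean over transcripts (bottom); bars show mean ± SD. Grm5 stays apart in all 3 rows, while Homer1 overlaps throughout in the middle row.

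**Figure D4:**
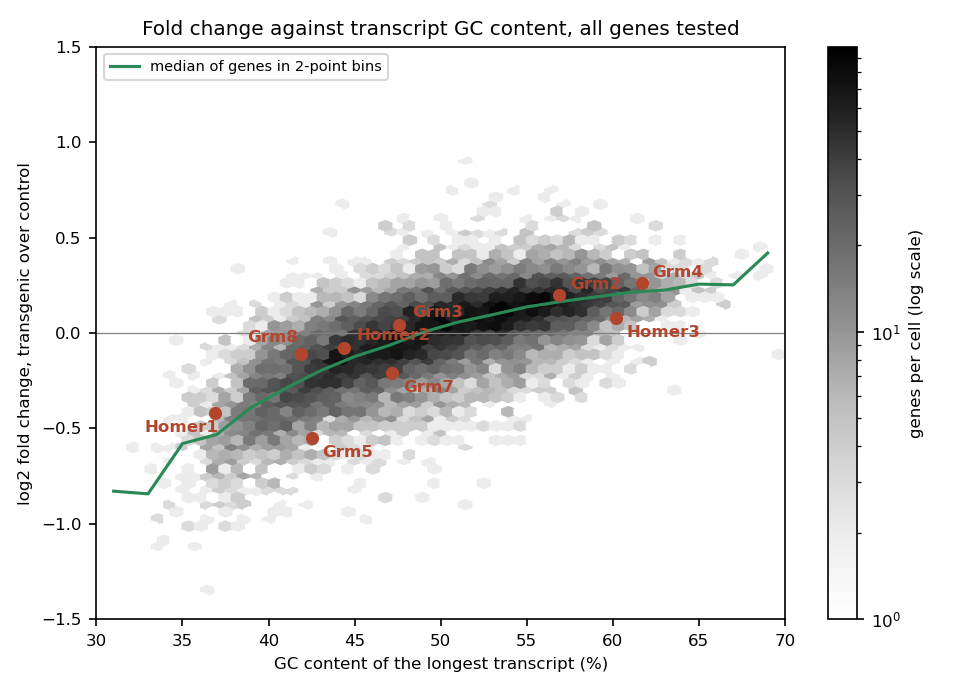
log2 fold change of transgenic over control (y axis) against GC content of the longest transcript (x axis) for the genes tested; shading gives genes per cell on a log scale, the line the median in bins of GC, and red points the 9 genes. Grm5 at 42.5% GC lies below the line and Homer1 at 36.9% GC slightly above it.

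Homer2 and Homer3 did not pass the test. Homer2 (ENSMUSG00000025813, chr7:81600481-81707527, - strand), another coiled-coil Homer, was at 96.8 to 144 CPM with a median of 118 in transgenic libraries. Controls held 147, 124, 122, 116 and 123 CPM, within which control 1 stands off from the other 4. The log2 fold change was -0.08 (95% interval -0.28 to 0.12, adjusted p = 0.562), turning to 0.05 with the GC trend removed and to -0.16 with the mean GC of transcripts. Homer3 was at 20.3, 21.3, 20.1, 13.8, 16.5 and 12.6 CPM in transgenic libraries and 16.4, 12.6, 21.9, 16.9 and 14.3 CPM in controls. In both groups its levels were higher where Xist was above 100 CPM, at 20.1 to 21.3 CPM in transgenic and 16.4 to 21.9 CPM in control libraries, than where it was below, at 12.6 to 16.5 CPM in transgenic and 12.6 to 14.3 CPM in control libraries, a split that was not tested. Its log2 fold change of 0.08 (95% interval -0.27 to 0.42, adjusted p = 0.765) turned to -0.15 with the GC trend removed. Homer3 shares 25.4% of its exon bases with Ddx49, whose reads cannot be separated without strand.

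Per exon length, Grm5 was the most abundant of the 9 in both groups, at 29.3 ± 3.12 RPKM (CPM per kilobase of the union of exons) in transgenic and 43.0 ± 4.97 RPKM in control libraries (SD, n = 6 and 5). Its lowest library, 25.3 RPKM, was above the highest of any other member. Grm3 followed at 16.2 RPKM in transgenic and 15.8 in control libraries, and Homer1 at 9.44 RPKM in transgenic and 12.6 in control libraries. Grm2 was at 14.5 RPKM in transgenic and 12.6 in control, Grm7 at 9.32 in transgenic and 10.8 in control, and Homer2 at 9.47 in transgenic and 10.03 in control libraries. The ranges of neighbours among these 5 overlapped, so their order is not fixed beyond the spread. Homer2 stood above Homer3 (5.07 RPKM in transgenic, 4.77 in control) in all libraries, and Grm4 (4.49 in transgenic, 3.76 in control) above Grm8 (1.65 in transgenic, 1.79 in control), while Homer3 and Grm4 overlapped. With the longest transcript as length, Homer1 ranked 2 in place of 3 by its control mean, Grm3 ranked 3, Grm7 ranked 4 and Grm2 ranked 5.

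**Figure D5:**
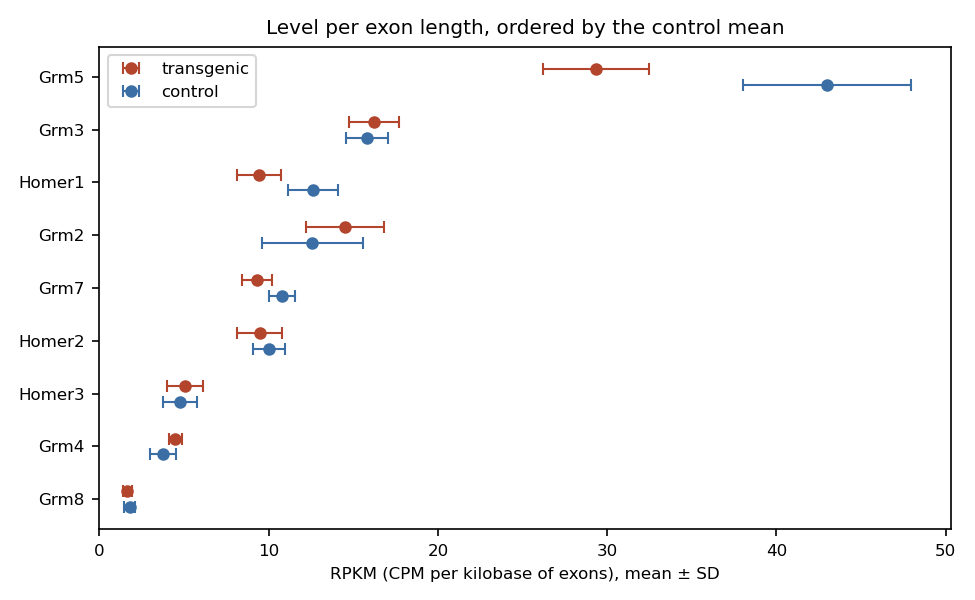
Level per exon length (x axis, RPKM, mean ± SD) of the 9 genes, ordered by the control mean, with transgenic (red) above control (blue) in each row. Grm5 has the highest level in both groups, at 29.3 RPKM in transgenic and 43.0 RPKM in control libraries.

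The makeup of the receptor and Homer groups follows from these levels. Grm5 took 38.8 ± 2.51% of the summed RPKM of the 6 receptors in transgenic (SD, n = 6) and 49.0 ± 4.90% in control libraries (SD, n = 5). The 2 ranges, 35.8% to 41.6% in transgenic and 41.5% to 53.3% in control libraries, met at their edges. Homer1 took 39.3 ± 2.75% of the summed RPKM of the 3 Homers in transgenic and 46.0 ± 1.69% in control libraries. The ranges, 34.1% to 41.1% in transgenic and 44.2% to 48.7% in control libraries, did not meet. How often such a share keeps the groups apart for other sets of genes was not measured. The longest transcripts of Homer1 and Homer3 also differ in GC content, at 36.9% and 60.2%. These shares are without trend removal, and both are subject to it. With the GC trend removed, the log2 fold change went from -0.42 to 0.09 for Homer1 and from -0.55 to -0.33 for Grm5. It went from 0.20 to 0.05 for Grm2 and from 0.26 to 0.05 for Grm4. Shares with the trend removed were not computed.

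The ratio of Grm5 to Homer1 counts asks whether receptor and scaffold transcripts shifted together. It was 2.42, 2.83, 2.41, 2.95, 2.54 and 2.91 in transgenic libraries and 2.67, 2.96, 2.45, 2.96 and 3.69 in control libraries. Apart from control 5, the 2 groups covered the same range. The mean log2 ratio differed by -0.13 (two-sided exact permutation p = 0.271, the smallest possible being 0.00216), and by -0.04 without control 5. With the GC trend removed the ratio was lower in transgenic libraries, at 2.47 ± 0.41 in transgenic and 3.30 ± 0.59 in control libraries (SD, n = 6 and 5), a log2 difference of -0.42 (exact permutation p = 0.0173). With the mean GC of transcripts the difference was -0.29 (exact permutation p = 0.0368).

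The 11 libraries differ in GC slope and in depth, and across them the log2 CPM of Grm5 and Homer1 had a Pearson r of 0.83, and of -0.14 with the trend removed. Among the protein-coding genes most like Grm5 was Hnrnpll (r = 0.988), and with the trend removed they were Bahcc1 and Map2 (0.977 and 0.974). Those most like Homer1 were Atp1b1 and Pdpk1 (0.972 and 0.965), and with the trend removed Pip4k2c and Slc35c2 (0.962 and 0.925). Before trend removal, the nearest for the other receptors were Kcnc4 and Slc16a11 for Grm2, Lypd6 and Prkra for Grm3, Vwa1 and Golga7b for Grm4, Pik3r3 and Pcdh15 for Grm7, and Hecw2 and Cntn6 for Grm8, with r of 0.841 to 0.958. For Homer2 they were Tmem230 and Zfp101 and for Homer3 Cotl1 and Wipf3, with r of 0.893 to 0.932. These correlations describe 11 libraries of 2 genotypes compared over 10400 genes, and carry no test.

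Downstream of group I receptors, 2 of 22 genes of the Gq pathway fell and 1 rose, with a median log2 fold change of -0.09 against 0.01 for all genes. Over all genes 10.5% fell and 7.41% rose, against which this count and those of the lists that follow are to be read. Plcb1, the main Gq-activated phospholipase C of the hippocampus, fell by 0.26 (SE 0.05, adjusted p = 0.0119), with 186 to 213 CPM in transgenic and 227 to 247 CPM in control libraries. Ryr2, a calcium release channel of the endoplasmic reticulum, fell by 0.27 (adjusted p = 0.0284), and Plcb3, another phospholipase C, rose by 0.22 (adjusted p = 0.0452). None of the 22 was called by edgeR once the GC trend was removed (5 fell and 0 rose at an unadjusted p under 0.05). In that fit 3143 of the 17293 genes tested passed that level in either direction, against which later counts of that kind are to be read. Ryr2 was then at -0.29 (adjusted p = 0.0512), Plcb1 at -0.13 (adjusted p = 0.0732) and Plcb3 at 0.05.

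Of 27 genes of the Gi/o pathway of groups II and III, 4 rose and 3 fell, with a median of 0.05. The rises included the G protein subunits Gng3 (0.25, adjusted p = 0.0125), Gnai2 (0.25, adjusted p = 0.014) and Gnb2 (0.22, adjusted p = 0.0254). The falls were in the subunits Gnai1 (-0.49, adjusted p = 0.0131) and Gng2 (-0.36, adjusted p = 0.0247) and in Kcnj3, a subunit of the potassium channel that Gi/o opens (-0.42, adjusted p = 0.0127). Kcnj3 was at 96.8 to 135 CPM in transgenic and 148 to 172 CPM in control libraries. These ranges did not overlap, as for 4.73% of all genes in that direction. Kcnj3 remained called with the GC trend removed, at -0.27 (adjusted p = 0.0417). The other 5 named here were not called after that removal, with Gnai1 at -0.27 (adjusted p = 0.0575), Gng2 at -0.19, Gng3 at 0.14, Gnai2 at 0.09 and Gnb2 at 0.02. In that fit 1 of the 27 rose and 1 fell. With the mean GC of transcripts 0 rose and 2 fell, namely Kcnj3 and Gng2.

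Among 24 binding partners of the receptors and Homers, 1 rose and 2 fell, with a median of 0.09. Dnm3, a dynamin that binds Homer, fell by 0.34 (adjusted p = 0.0228), Grip1, a PDZ scaffold of glutamate receptors, fell by 0.22 (adjusted p = 0.048), and Cyth2, an exchange factor for ARF GTPases, rose by 0.20 (adjusted p = 0.0479). Of 13 genes for glutamate uptake and supply, 3 fell and none rose in edgeR (0 at an unadjusted p under 0.05, and 0 with DESeq2), with a median of -0.12. Among them, the transporters Slc1a1 and Slc1a2 fell by 0.22 and 0.17 (adjusted p = 0.0383 and 0.0404). Grip1 was at -0.17, Dnm3 at -0.21 and Cyth2 at 0.06 with the GC trend removed (adjusted p = 0.188, 0.118 and 0.546). No gene of either list was called in that fit, where 2 partners rose, 3 partners fell and 1 uptake gene fell at an unadjusted p under 0.05. Slc1a1 was then at -0.19 and Slc1a2 at -0.06.

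Markers of cell types that could change the level of these receptors were read beside them. Of 15 astrocyte markers 4 rose and Slc1a2 fell, with a median log2 fold change of 0.02. Their summed level was 5435 to 6431 CPM in transgenic and 6077 to 6857 CPM in control libraries. Slc1a2 alone made up most of that sum, with a mean of 3388 CPM in transgenic and 3810 CPM in control libraries. Of 12 dentate granule cell markers edgeR called Rfx3 alone, with a fall of 0.66 (-0.31 with the GC trend removed, adjusted p = 0.323), and DESeq2 called Stxbp6 too. The list summed to 236 to 454.0 CPM in transgenic and 270 to 563 CPM in control libraries. Of 14 interneuron markers 2 rose and 1 fell, and of 15 microglial markers 5 rose, with sums of 420.1 to 535 CPM in transgenic and 376 to 458 CPM in control libraries. Among the rest, 1 of 8 oligodendrocyte precursor markers rose, 2 of 14 endothelial and mural markers fell, and none of the 11 CA1, 11 CA3 and CA2, 12 oligodendrocyte or 4 choroid plexus markers was called by edgeR. At an unadjusted p under 0.05, 4 CA1 markers rose and 1 fell, 2 CA3 and CA2 markers fell, 3 oligodendrocyte markers rose and 1 choroid plexus marker fell, and DESeq2 called 1 CA1 and 1 CA3 and CA2 marker. No listed marker was at 0 in all libraries. After removal of the GC trend with the GC of the longest transcript, edgeR called no marker of these lists. At an unadjusted p under 0.05 there were then 3 rises and 1 fall among astrocyte and 3 rises and 3 falls among interneuron markers. There were also 3 rises among microglial, and 2 rises and 1 fall among endothelial and mural markers. By that measure 2 CA3 and CA2, 1 dentate and 1 choroid plexus marker fell. With the mean GC of transcripts edgeR called a fall of the interneuron marker Cnr1 and a rise of the endothelial and mural marker Itm2a. Their part in the levels of Grm5 and Homer1 was not tested.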

How the data were processed

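Polyadenylated RNA from dissected CA1 was made into unstranded TruSeq libraries and read as single ends of 50 bases, per the labels' protocols. For each library the authors deposited raw counts of reads per gene on mm10; the tools named, per the submitters' processing notes, are STAR 2.5.2b, Subread 1.5.1, featureCounts and FastQC 0.11.5, and the sources used here give no counting settings. The authors' deposited tables of changed genes give a log2 fold change, an adjusted p-value and a signal per library, of which the signal was not used here.

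Gene names, lengths and GC content came from GENCODE release 21 (mm10). edgeR 4.0.16 in R 4.3.3 kept 17293 genes with filterByExpr (99.9% of counts), scaled them by TMM and compared the groups in all 11 libraries by its quasi-likelihood F test without a covariate, adjusted by Benjamini-Hochberg over all genes at 0.05. Standard errors came from the fold change and F. CPM use TMM library sizes, and log2 CPM a prior count of 2. To remove the GC trend, a lowess curve (span 0.3) of each library's deviation from a gene's mean log2 CPM on the GC of its longest transcript entered as an offset (a GC value for 17246 genes). The Grm5 to Homer1 ratio added 0.5 to each count. Alternatives used DESeq2 1.42.0 and limma 3.58.1 among others. The fit without trend removal was tested on simulated counts, which held no GC trend. It called 66% of 100 genes with a true log2 change of 0.5 in either direction and 94% of 100 with 1.0. It made 11 false calls, and removal of the GC trend was not simulated.

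The members, lists and alternatives were chosen with earlier results of these data known. Named are the 9 members, up to 3 called genes per pathway list and direction by smallest p, and the 2 genes with a mean log2 CPM of at least 3 most correlated with each member; 2 genes that this rule names are not reported here. Libraries of a group differed by 6.46 to 54.3 in chi-square per degree of freedom, more than counting noise. None was therefore taken for a second sequencing of another library. That spread cannot show whether the libraries come from separate animals. Homer3, Grm8 and Grm4 had the fewest counts of the members.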

Additional observations from a re-analysis of the deposited data

Results flagged for a closer look

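Homer2 in control replicate 1, at 147 CPM, lay far above the other 4 control libraries, which held 116 to 124 CPM. The gap was 0.751 of the range of the controls. It was the only such case in 20 tests of single high or low libraries, of which chance gives about 1. Among the transgenic libraries, replicate 5 had a like level of 144 CPM.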

How the results depend on the processing

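The number of genes called, 3094, stayed within 1.5 times under other scalings, filters, DESeq2, the Xist covariate and the replicate block (4594). It was 4774 with limma voom, 342 with the GC trend removed, 294 with GC and length, 746 with the replicate block and GC, and 400 with the mean GC of transcripts, chosen after seeing the data. Leaving out each library gave 1155 to 4712 genes and 2 to 3 of the 9 members. With the GC trend removed as well, also added after seeing the data, it gave 0 to 942 genes and 0 to 1 members. In 8 of those 11 fits edgeR called no gene, with 2490 to 3225 at an unadjusted p under 0.05, so a lost call of Grm5 there goes with the loss of all calls. Of the members, 1 (Grm5) was called with the GC trend removed, by either GC value, with length too, and with the replicate block.

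Homer1 reversed to 0.09 with GC removed, 0.15 with GC and length and 0.15 with the replicate block and GC, at 0.03 to 0.16 over the libraries left out (-0.47 to -0.37 without GC removal), but was -0.19 with the mean GC of transcripts. Over the same removals Grm8 reversed to 0.12, 0.16 and 0.11 and Homer2 to 0.05, 0.12 and 0.05. Homer3 reversed to -0.15, -0.16 and -0.06, and to -0.13 with the mean GC. None of these 3 was called in any fit. Over both sets of fits with a library left out, Grm2 ran over -0.04 to 0.33, Grm8 over -0.18 to 0.25, Homer2 over -0.14 to 0.12 and Homer3 over -0.25 to 0.21. The cause of the reversals was not tested beyond these removals.

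The ratio of Grm5 to Homer1 differed by -0.42 with GC, -0.43 with GC and length (exact permutation p = 0.0173 for both) and -0.29 with the mean GC (exact permutation p = 0.0368), against -0.13 as counted and -0.19 to -0.04 over the libraries left out. Same-numbered libraries did not deviate together (correlations of -0.185 to 0.197, with 1 of 5 over 0.1), so the numbers do not pair them. With the replicate block, which rests on these numbers, Grm7 was called at -0.26 (adjusted p = 0.0274). Over the 5 same-numbered pairs the ratio differed by -0.15 (exact sign-flip p = 0.0625, the smallest that 5 pairs can give). The transgenic library without a same-numbered control was left out. All 5 pairs were lower in transgenic libraries, but replicate 4 only by 2.9546 in transgenic against 2.9561 in control. Since the numbers do not pair the libraries, no fall within pairs can be read from this. The unpaired exact permutation p of the ratio as counted was 0.271.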
